A study of Homo sapiens with 6 samples.

Results

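The genes described here are those of the proteasome. They were taken from the annotation of the array as all genes with a symbol that begins with PSM, a class letter from A to G and a number, which gave 48 probe sets of 47 genes among 18404 genes with a probe set of their own. Each gene was represented by the probe set with the highest mean over all 6 arrays, and only PSMC6 had more than 1 to choose from. By their symbols 45 of the 47 are components, assembly factors, activators or inhibitors of the proteasome, while PSMC3IP and PSME3IP1 are proteins named for an interaction with one. PSMC5, PSMD7 and PSMD13 were not analysed here.

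The proteasome degrades proteins that carry ubiquitin chains. Its barrel-shaped core particle is built from alpha subunits (PSMA), which form the outer rings and the gate, and beta subunits (PSMB), some of which cut the substrate. A regulatory particle sits on the core. Its base holds ATPases (PSMC) that unfold and feed in the substrate, and its other subunits (PSMD) bind ubiquitin chains, remove them and connect the parts. PSMG proteins help to assemble the core, PSME proteins are alternative activators that dock on it, and PSMF1 was first described as an inhibitor. Cells exposed to interferon gamma replace the standard catalytic subunits by those of the immunoproteasome.

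The data came from MUG-Chor1, an established cell line from a chordoma, a bone tumour that resembles notochord. Its large physaliferous cells are filled with vacuoles, and the study compared them with its small cells without vacuoles. Both groups were the same untreated line, grown in the same medium, detached with trypsin and picked under the microscope by phenotype. No source used here says whether large and small pools were picked, amplified and hybridised together. A difference in handling therefore cannot be told apart from the phenotype. The large pools carry the replicate numbers 2, 3 and 4 and the small pools the numbers 5, 6 and 7, with 20 cells in each pool. RNA of each pool was amplified and hybridised to an Affymetrix Human Gene 1.0 ST array, and the deposited values are log2 signals after robust multi-array averaging (RMA). All levels below are on this scale and differences are large minus small in log2 units, so that 1 is a doubling. The study's methods describe pools picked in quadruplicate and run as 4 biological replicates in quantitative PCR, while 3 arrays per group were analysed here. Nothing in the sources says that each pool was picked from a culture of its own, and the p-values then measure only how far these pools spread. In pools, fewer cells that express a gene and less of its RNA per cell cannot be told apart, and every value is relative to all RNA on the array.

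The label of the cells was checked against markers. All 10 markers of chordoma and notochord measured, TBXT (brachyury) among them, lay above a signal of 100 in every pool, and their mean level was 9.88 to 9.93 in the large and 9.81 to 9.94 in the small pools. The 8 fibroblast markers averaged 6.70 to 6.84 in the large and 6.96 to 7.24 in the small pools, and their means did not overlap. The median of all genes did not overlap either, at 6.73 to 6.81 in the large and 6.85 to 6.91 in the small pools. At an unadjusted limma p under 0.05, 0 fibroblast markers were higher and 0 lower. COL1A1, COL1A2, COL3A1 and THY1 were above 100 in every pool and DCN and FAP in none, and LUM reached 8.88 in small pool 7. The 6 leukocyte markers averaged 6.38 to 6.63 in the large and 6.41 to 6.62 in the small pools, with CD68 and NKG7 above 100 in every pool and PTPRC in none. CD68, a lysosomal protein of macrophages that other cells also make, measured 8.97, 8.67 and 9.003 in the large pools and 8.71, 8.16 and 7.97 in the small pools (0.60, limma adjusted p 0.326). The 4 endothelial markers averaged 6.18 to 6.35 in the large and 6.34 to 6.43 in the small pools, and of these PECAM1, CDH5 and VWF were above 100 in no pool. The part of the fibroblast markers and of CD68 in the results below was not tested.

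Proteasome genes are known to share transcription factors. The 250 bases before the start of 4 genes are given here as examples, chosen after the values had been seen. PSMD12 had large and small pools without overlap, and PSMB3 had the largest difference of all members. PSMD14 and PSME3 had levels that split the small pools. The sequences are from RefSeq on GRCh38.p14, written on the strand of the gene with the start site after the last base. Capitals mark CCAAT, the box bound by the factor NF-Y, and TGACNNNGC, the core of the antioxidant response element bound by NFE2L1 and NFE2L2, each on either strand. NFE2L1 is known to raise proteasome genes when the proteasome is inhibited.
PSMD12, chr17:67366578-67366827, minus strand: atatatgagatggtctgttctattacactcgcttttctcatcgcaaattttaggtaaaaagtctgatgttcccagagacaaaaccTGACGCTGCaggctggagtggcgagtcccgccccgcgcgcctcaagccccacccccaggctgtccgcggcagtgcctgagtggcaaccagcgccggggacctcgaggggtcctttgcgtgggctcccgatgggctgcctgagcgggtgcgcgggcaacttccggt
PSMB3, chr17:38752491-38752740, plus strand: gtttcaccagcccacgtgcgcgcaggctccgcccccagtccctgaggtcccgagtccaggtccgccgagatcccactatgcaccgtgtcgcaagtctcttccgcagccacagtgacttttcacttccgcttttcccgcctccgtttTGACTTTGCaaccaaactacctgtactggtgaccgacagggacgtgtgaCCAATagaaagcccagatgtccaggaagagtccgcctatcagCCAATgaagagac
PSMD14, chr2:161308175-161308424, plus strand: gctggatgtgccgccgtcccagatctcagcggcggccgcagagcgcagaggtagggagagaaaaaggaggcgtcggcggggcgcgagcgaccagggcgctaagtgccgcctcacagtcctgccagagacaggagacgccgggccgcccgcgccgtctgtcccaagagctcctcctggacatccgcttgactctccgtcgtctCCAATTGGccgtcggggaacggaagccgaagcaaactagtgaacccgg
PSME3, chr17:42833147-42833396, plus strand: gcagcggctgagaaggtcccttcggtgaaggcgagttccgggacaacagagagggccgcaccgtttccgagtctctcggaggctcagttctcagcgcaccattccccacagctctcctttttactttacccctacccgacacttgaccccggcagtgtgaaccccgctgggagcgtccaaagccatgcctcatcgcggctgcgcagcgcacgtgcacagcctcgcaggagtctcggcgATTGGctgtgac
The TGACNNNGC match of PSMD12 began 165 bases before the start and that of PSMB3 104 bases before it. PSMB3 also held 2 CCAAT boxes, at 55 and 13 bases. The pair in PSMD14 lay on opposite strands and overlapped, at 48 and 45 bases, and PSME3 held a single CCAAT box at 12 bases. The windows of PSMC2, with a CCAAT box, and of PSMG1, with both motifs, lie inside the span of another gene and are not printed.

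RefSeq promoters were found for 41 of the 47 genes, with 51 start sites among them. CCAAT occurred in 21 of these 51 windows (41.2%), against 32.0% of all 35116 promoter windows. TGACNNNGC occurred in 12 windows (23.5%), against 10.9% of all windows. The palindrome of the nuclear respiratory factor NRF1 occurred in 7 windows (13.7%) against 7.16%, and TTCNNNGAA, the letters of STAT factors, in 7 windows (13.7%) against 6.57%. These are matches of letters on both strands, with overlaps allowed, and no test was made of them.

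No proteasome gene passed the test between the phenotypes. With limma over all 18404 genes, an adjusted p under 0.05 and a log2 fold change above 1 in either direction were met by 0 of 47 members and by 0 genes in all (0%). The smallest adjusted p of a member was 0.323 and that of any gene 0.143. Without adjustment, 4 members were higher in large pools at p under 0.05, namely PSMC2, PSMD12, PSMG1 and PSMD4, which is 8.51% of the members against 4.33% of all genes. At the same limit 0 members were lower, against 10.5% of all genes. These shares depend on the scaling: with arrays centred on their median 9 members were higher, against 7.29% of all genes higher and 3.10% lower, and after a further quantile normalization 1 was higher, against 4.39% higher and 5.94% lower. The count of 4 was 2 without large pool 2, 1 without large pool 3, 2 without large pool 4, 2 without small pool 6 and 6 without small pool 5. Over all genes 3.72% to 4.69% were higher with a pool left out.

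Most members lay slightly higher in large cells. The log2 fold change was above 0 for 33 of 47 members (70.2%), against 33.6% of all genes. Its median was 0.09 for the members, within a range of -0.49 to 1.25, and -0.11 for all genes. Proteasome RNAs are abundant, and over all genes the brightest differed in direction from the rest. When genes were split into 5 equal classes by mean level, 33 members fell in the brightest class. Their median was 0.11, and 27 of them were above 0. In that class 62.0% of all genes were above 0, with a median of 0.08. In the next class 3 of 9 members were above 0, against 31.4% of all genes. In the classes below it 21.8%, 22.7% and 29.9% of all genes were above 0, with the last value in the dimmest class. Among the 7990 genes above a signal of 100 in every pool, 31 of 43 members were above 0, against 40.5% of all of them. In these genes the 4 members higher at an unadjusted p under 0.05 were 9.30%, against 5.78% of all, and 0 were lower, against 8.41%. The other members were PSMB8, which was above 100 in the 3 large and in 2 small pools, and PSMA8, PSMB11 and PSMD5, which were above it in no pool.

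The large pools lay above the small pools for PSMC2, PSMD12, PSMG1, PSMD5, PSMB5 and PSMD14, without overlap. These 6 members are 12.8%, against 5.48% of all genes. The opposite order was found for PSMB11 alone (2.13%), against 21.6% of all genes. Without large pool 2, 10 members were higher without overlap and 4 lower. Leaving out a pool makes it easier not to overlap, and the share of all genes was not counted there. The shares above therefore do not apply to these counts. Without large pool 4, 12 were higher, as without small pool 5, and without small pool 7 there were 10. The lower members numbered 3 without large pool 3 or small pool 7, 4 without small pool 6 and 2 without small pool 5.

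**Figure D1:**
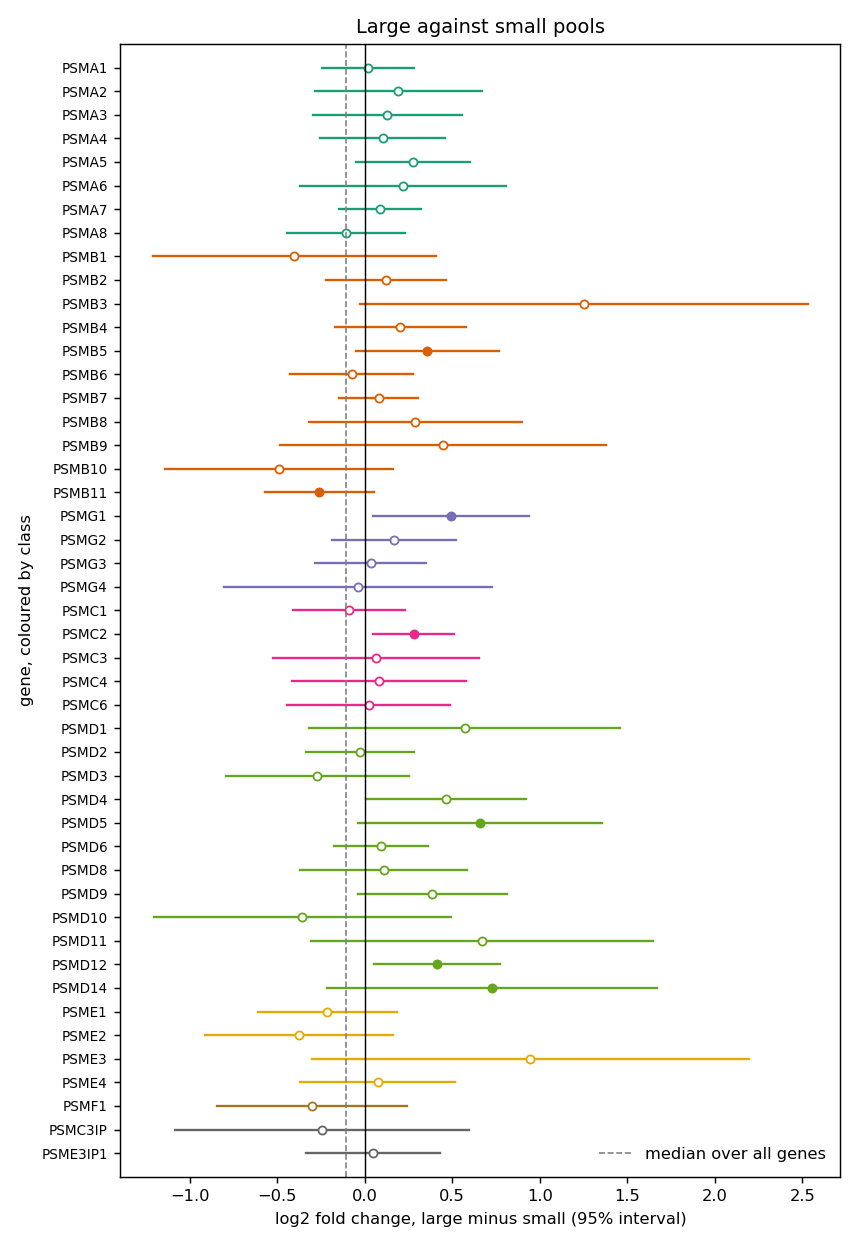
Log2 fold change of each of the 47 members, large minus small, with the 95% interval from limma as a bar, coloured by class. Filled points are members whose 3 large and 3 small pools do not overlap, and the dashed line is the median of all genes at -0.11. Most points lie between 0 and 0.5, and the widest bars belong to PSMB3 and PSME3.

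The alpha subunits, which close the ends of the core, had small differences. Of 8 measured, 7 were above 0, with a median of 0.12 and a range of -0.11 to 0.28, and none had an unadjusted p under 0.05. PSMA5 came closest, at 10.77, 10.95 and 10.72 in large pools 2, 3 and 4, against 10.40, 10.45 and 10.75 in small pools 5, 6 and 7 (log2 fold change 0.28, SE 0.13, limma adjusted p 0.357). Small pool 7 lay among the large pools. PSMA1 differed by 0.02, with a 95% interval of -0.24 to 0.28. PSMA6 was low in small pool 6 alone, at 10.53 there and 11.18 to 11.45 in the other pools. PSMA8, an alpha subunit of the testis, stayed between 3.98 and 4.35, below the signal floor.

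Among the structural beta subunits PSMB3 stood apart. It measured 10.07, 10.78 and 10.74 in the large pools, against 10.45, 8.45 and 8.94 in the small pools. Small pool 5 lay among the large pools, while small pools 6 and 7 lay more than 1 log2 unit below all of them. The log2 fold change was 1.25 (SE 0.53, 95% interval -0.03 to 2.53, limma adjusted p 0.336), a fold of 2.38, and it was the only member past 1 in size, as were 2.24% of all genes. Without one pool at a time it ranged between 0.84 and 1.84. PSMB1 ran the other way, at 8.89, 9.39 and 8.79 in the large pools against 8.83, 9.40 and 10.05 in the small pools (-0.40, SE 0.33, limma adjusted p 0.527). Its highest value was that of small pool 7. PSMB2 and PSMB4 differed by 0.12 and 0.20.

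The catalytic subunits of the standard core are PSMB5, PSMB6 and PSMB7, which cut after hydrophobic, acidic and basic residues. PSMB5, the main target of bortezomib, measured 9.78, 9.26 and 9.23 in the large pools and 9.06, 9.12 and 9.02 in the small pools (0.36, SE 0.17, limma adjusted p 0.351). The groups did not overlap, and large pool 2 was far above the other two; without it the difference was 0.18. PSMB6 measured 9.82, 9.92 and 10.03 in the large pools and 10.27, 9.89 and 9.84 in the small pools (-0.08, SE 0.14, limma adjusted p 0.794), with small pool 5 highest. PSMB7 measured 11.41, 11.50 and 11.38 in the large pools and 11.38, 11.41 and 11.27 in the small pools. Its difference was 0.08 (SE 0.09, 95% interval -0.15 to 0.31, limma adjusted p 0.651).

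The immunoproteasome subunits had differences of both signs. PSMB8, which takes the place of PSMB5, measured 7.61, 6.89 and 6.80 in the large pools and 6.91, 6.53 and 6.99 in the small pools (0.29, SE 0.25, limma adjusted p 0.541). PSMB9, which takes that of PSMB6, lay at 8.05, 7.997 and 7.97 in the large pools, against 8.41, 7.44 and 6.82 in the small pools (0.45, SE 0.38, limma adjusted p 0.542). The 3 large pools were within 0.08 of each other, and the small pools spread over 1.59. PSMB10, which takes that of PSMB7, measured 7.25, 7.54 and 7.21 in the large pools and 8.40, 7.40 and 7.67 in the small pools (-0.49, SE 0.27, limma adjusted p 0.386). Without one pool at a time the difference ranged between -0.70 and -0.20. Small pool 5 was the highest for both PSMB9 and PSMB10. PSMB11, a subunit of the thymus, lay at 5.16, 5.10 and 5.13 in the large pools and 5.62, 5.22 and 5.33 in the small pools, below the floor everywhere (-0.26, SE 0.13, limma adjusted p 0.36).

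Each immunoproteasome subunit was also set against its standard counterpart within a pool, as a difference of log2 values, which cancels a constant shift of the array. PSMB8 over PSMB5 differed by -0.07 between the phenotypes, PSMB9 over PSMB6 by 0.52 and PSMB10 over PSMB7 by -0.57. Exact two-sided permutation tests gave p = 0.8, 0.3 and 0.2, and 0.8, 0.375 and 0.333 after adjustment over the 5 ratios computed. With 3 pools against 3 the smallest p this test can give is 0.1. The ratios were picked after the values had been seen, so these p-values are descriptive. Without one pool at a time the second ranged between 0.23 and 0.81 and the third between -0.81 and -0.30. The sign of the first ratio turned without small pool 7, to 0.04, after a further quantile normalization, to 0.13, and with the trend with signal level removed, to 0.17.

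**Figure D2:**
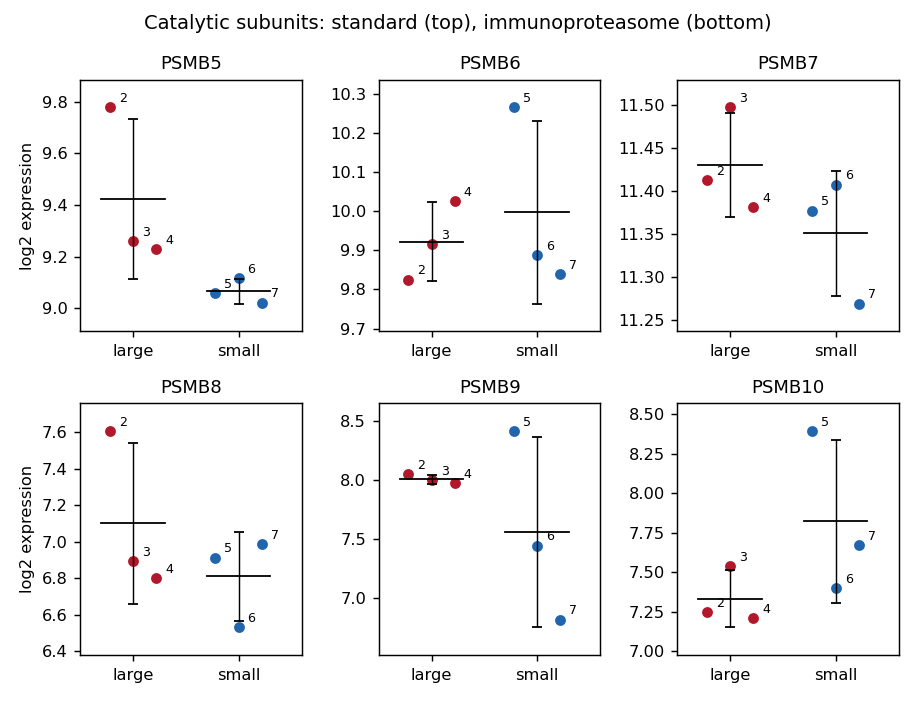
Log2 expression of the standard catalytic subunits (top row) and of their immunoproteasome counterparts (bottom row) in each pool, large pools left and small pools right, labelled by replicate number. Lines and bars are the mean and SD (n = 3 pools), and each panel has its own axis that does not start at 0. PSMB5 separates the groups, and PSMB9 spreads over 1.59 among the small pools.

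The assembly factors of the core are chaperones that pair up to build the alpha ring. PSMG1 measured 9.62, 9.41 and 9.77 in the large pools, against 9.28, 9.27 and 8.76 in the small pools. Every large pool was above every small pool. Its log2 fold change was 0.49 (SE 0.18, limma adjusted p 0.329), a fold of 1.41, and the gene lies at chr21:39174769-39183514. PSMG2, its partner, differed by 0.17 with overlapping pools, and PSMG3 and PSMG4, the other pair, by 0.04 and -0.04. PSMG4 ranged over 1.03 among the small pools, with small pool 7 lowest.

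Among the ATPases of the base PSMC2 had the smallest p of all members. It measured 11.32, 11.39 and 11.21 in the large pools and 11.01, 11.01 and 11.07 in the small pools, a mean of 11.31 ± 0.09 against 11.03 ± 0.03 (SD, n = 3 each). The difference was small but clear of the spread in both groups, at 0.28 (SE 0.09, 95% interval 0.05 to 0.51, limma adjusted p 0.323), a fold of 1.21. PSMC2 lies at chr7:103347524-103369395 and its product is part of the hexamer that pulls substrates into the core. The other ATPases measured did not follow it: PSMC1 differed by -0.09, PSMC3 by 0.07, PSMC4 by 0.08 and PSMC6 by 0.02, all with overlapping pools. The second probe set of PSMC6 differed by 0.18.

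The remaining subunits of the regulatory particle had the highest median of the classes, at 0.40 over 12 genes, 9 of them above 0. PSMD12, a scaffold subunit of the lid at chr17:67337916-67366577, measured 10.32, 10.45 and 9.98 in the large pools, against 9.87, 9.73 and 9.90 in the small pools (0.41, SE 0.15, limma adjusted p 0.324). The lowest large pool was only just above the highest small pool. PSMD4, a receptor for ubiquitin chains, measured 8.01, 8.29 and 8.45 in the large pools and 7.85, 8.03 and 7.47 in the small pools (0.46, SE 0.19, limma adjusted p 0.336), with large pool 2 and small pool 6 in reversed order.

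PSMD14, the enzyme that cuts ubiquitin chains off the substrate, measured 10.10, 10.02 and 10.22 in the large pools and 9.82, 9.88 and 8.45 in the small pools (0.73, SE 0.39, limma adjusted p 0.381). Small pool 7 made most of this difference: without it the log2 fold change was 0.26. PSMD11, which clamps the lid to the core, measured 10.88, 10.59 and 10.41 in the large pools and 10.87, 9.34 and 9.66 in the small pools (0.67, SE 0.40, limma adjusted p 0.415), again with small pool 5 among the large pools. PSMD1, the large scaffold of the base, was low in small pool 6 only, at 10.43, 10.46 and 10.22 in the large pools and 10.32, 8.94 and 10.14 in the small pools (0.57, SE 0.36, limma adjusted p 0.432). Without that pool the difference was 0.14. These 3 genes are outside the choice by smallest p and are given because of this pattern, seen in their values.

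The chaperones that build the base include PSMD9, PSMD5 and PSMD10. PSMD9 measured 7.57, 7.998 and 7.84 in the large pools and 7.32, 7.23 and 7.71 in the small pools (0.39, SE 0.18, limma adjusted p 0.344). PSMD5 measured 6.23, 6.01 and 6.62 in the large pools and 5.93, 5.05 and 5.90 in the small pools (0.66, SE 0.29, limma adjusted p 0.339), without overlap but below the floor in every pool. PSMD10 (gankyrin) had lower values in the large pools, at 9.35, 8.54 and 8.52 against 9.07, 8.66 and 9.75 in the small pools (-0.36, SE 0.35, limma adjusted p 0.588). PSMD3, a lid subunit, measured 7.71, 7.39 and 7.67 in the large pools and 7.72, 7.56 and 8.30 in the small pools (-0.27, SE 0.22, limma adjusted p 0.513). In both of the last genes small pool 7 was the highest of all. PSMD2 differed by -0.03, PSMD6 by 0.09 and PSMD8 by 0.11.

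**Figure D3:**
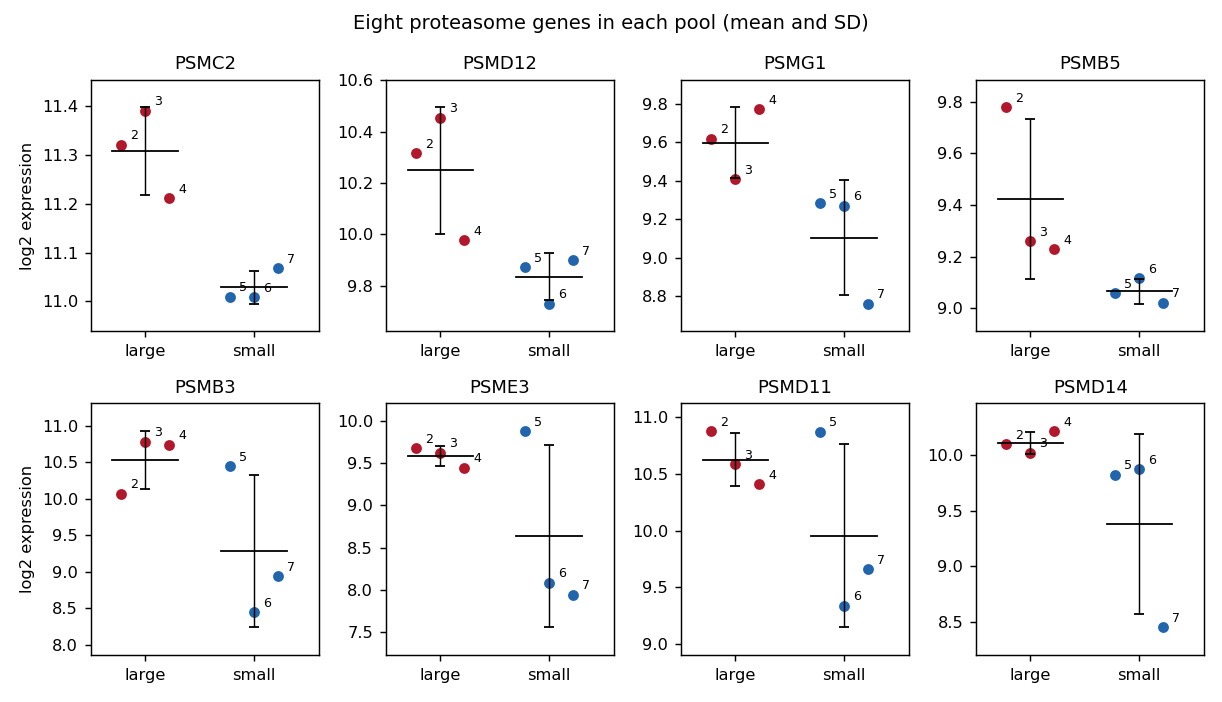
Log2 expression of 8 members in each pool, large pools left and small pools right, labelled by replicate number, with the mean and SD (n = 3 pools); each panel has its own axis that does not start at 0. The top row and PSMD14 have no overlap between the groups, and in PSMB3, PSME3 and PSMD11 small pool 5 lies among or above the large pools.

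None of the 4 activators had an unadjusted p under 0.05, with a log2 fold change above 0 for 2 and below 0 for 2. PSME1 and PSME2 form the activator induced by interferon gamma, while PSME3 forms a related ring in the nucleus. PSME1 measured 9.91, 9.70 and 9.57 in the large pools and 10.22, 9.87 and 9.74 in the small pools (-0.21, SE 0.16, limma adjusted p 0.497). PSME2 measured 9.71, 9.59 and 9.31 in the large pools and 10.34, 9.80 and 9.59 in the small pools (-0.37, SE 0.22, limma adjusted p 0.411). The same small pool, number 5, was highest for both. PSME3 measured 9.67, 9.62 and 9.45 in the large pools, against 9.88, 8.09 and 7.94 in the small pools (0.95, SE 0.51, 95% interval -0.30 to 2.19, limma adjusted p 0.385), a fold of 1.93. Without small pool 5 its log2 fold change was 1.57 and its limma adjusted p 0.139, the lowest of any named member under the settings run. PSME4, a nuclear activator, differed by 0.08. PSMF1 measured 7.46, 6.80 and 7.08 in the large pools and 7.75, 7.26 and 7.23 in the small pools (-0.30, SE 0.22, limma adjusted p 0.487).

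Within a pool, the ratio of PSME1 to PSME3 was 0.24, 0.08 and 0.13 in the large pools and 0.34, 1.78 and 1.80 in the small pools, in log2 units. That of PSME2 to PSME3 was 0.03, -0.04 and -0.13 in the large pools and 0.46, 1.71 and 1.64 in the small pools. Every large pool was below every small pool in both ratios. The differences were -1.16 and -1.32, each with an exact two-sided permutation p of 0.1, the smallest possible, and 0.25 after adjustment over the 5 ratios. Without one pool at a time they ranged between -1.64 and -0.91 and between -1.72 and -1.10. All 5 ratios were picked after the values had been seen, so the p-values are descriptive, and the adjustment does not account for that choice. Both of these ratios share PSME3 and its split among the small pools.

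The proteasome genes had wider ranges among the small pools than among the large ones. The range over the 3 pools was larger in the small group for 33 of 47 members (70.2%), against 47.2% of all genes, with a median range of 0.37 in the large and 0.48 in the small pools. Among the large pools 0 members ranged over more than 1 log2 unit, against 7.97% of all genes. Among the small pools 10 members did (21.3%), against 10.8% of all genes, and of the genes above a signal of 100 in every pool 5.93% did so in the large and 12.8% in the small group. The 10 were PSMB3 with a range of 2.00, PSME3 with 1.94, PSMB9, PSMD11, PSMD14, PSMD1, PSMC3IP, PSMB1, PSMD10 and PSMG4. The count was 4 without small pool 5, 5 without small pool 7 and 7 without small pool 6. The difference in range between the groups was not tested. The median pooled SD was 0.247 for the members, 0.183 for all genes and 0.198 for genes above a signal of 100 in every pool. The range was larger in the small group for 53.4% of these genes and for 69.8% of the 43 members among them.

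The small pools differed in how many members were lowest there. In small pool 7 the most members had their lowest value, 18 of 47, and in small pool 6 a further 11, but small pool 5 held the highest value for 11 members. Relative to each gene's mean, the median deviation of the members was 0.10, 0.05 and -0.00 in the large pools and 0.01, -0.07 and -0.12 in the small pools. For all genes it was -0.03, -0.08 and -0.05 in the large pools and 0.08, 0.04 and 0.02 in the small pools, so that members minus all genes was 0.13, 0.13 and 0.05 in the large and -0.07, -0.11 and -0.14 in the small pools. Of the large pools, pool 3 held the highest value for 14 members. Highest and lowest values were not counted over all genes, so these counts cannot be read as particular to the members.

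PSMB3, PSME3 and PSMD11, which were more than 1 log2 unit higher in small pool 5 than in both other small pools, all lie on chromosome 17, at chr17:38752741-38764225, chr17:42833397-42843760 and chr17:32444510-32483319. They are 3 of the 7 members on that chromosome and the only 3 of all 47 members with this pattern (6.38%). The pattern, its threshold and the chromosome were chosen after these values had been seen. The shares that follow are therefore descriptive, and the pattern was not tested. Of all 514 genes of chromosome 17 above a signal of 100 in every pool 2.53% had this pattern, against 1.43% of all 7990 such genes. The median deviation over the 514 genes was 0.10, 0.06 and 0.02 in small pools 5, 6 and 7, against 0.07, 0.03 and 0.02 for the 7990.

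**Figure D4:**
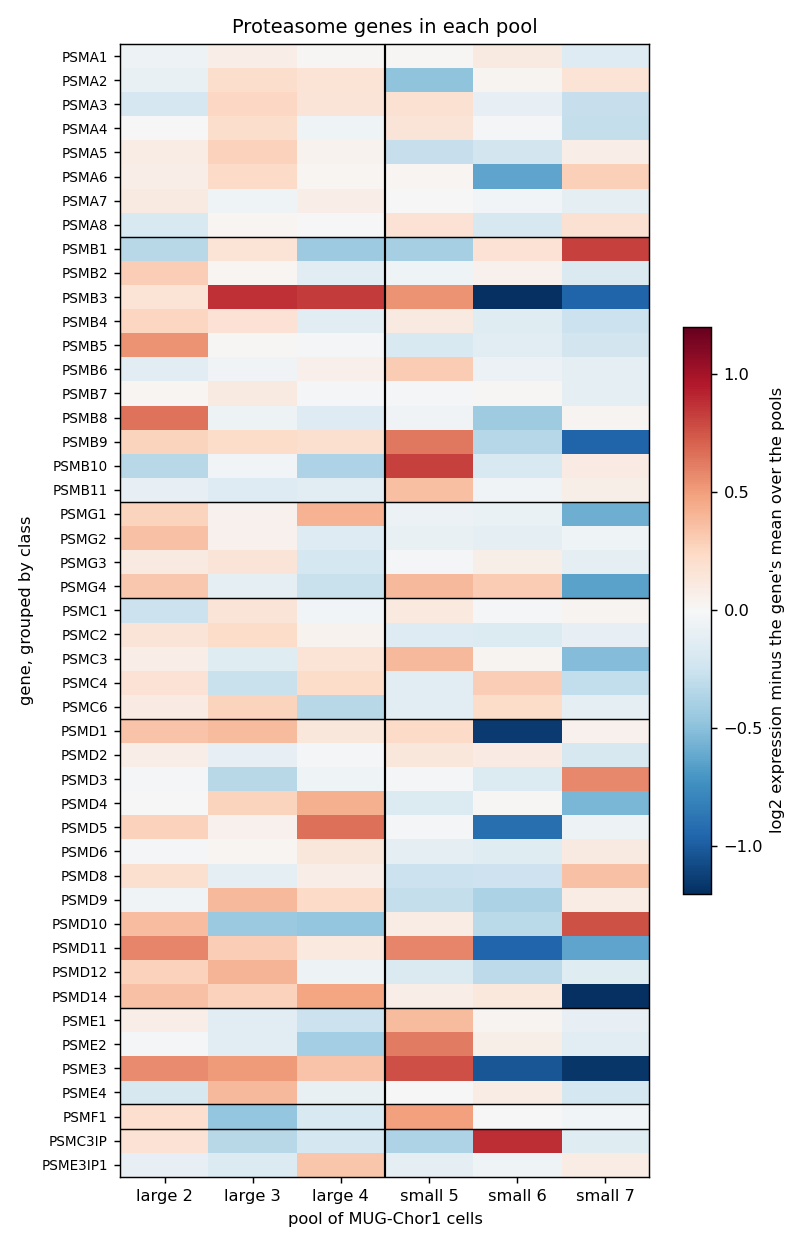
Log2 expression of the 47 members (rows, grouped by class) in the 6 pools (columns, large pools left) after subtraction of each gene's mean. Red is above and blue below the mean, and the colour scale ends at 1.2 in either direction, which 2 cells exceed. The strongest blues lie in small pools 6 and 7, each in a few genes only.

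Genes that work with the proteasome but carry no PSM symbol were read from the same fit. Of 17 such partners 13 were above 0, with a median of 0.29, 6 were higher at an unadjusted p under 0.05 and 0 lower, without any that passed. Over all genes 33.6% were above 0, 4.33% were higher and 10.5% lower at that limit, the shares to read against this and the lists that follow. The count of 6 was 2 after a further quantile normalization, 0 with the filter on signal and variation and 3 to 5 with a pool left out. UCHL5, a deubiquitinase of the regulatory particle, measured 8.90, 8.87 and 9.37 in the large pools and 8.52, 8.23 and 8.23 in the small pools (0.72, SE 0.17, limma adjusted p 0.323). UBLCP1, a phosphatase that acts on the proteasome, differed by 0.70 (SE 0.18) and UBE3C, a ligase that extends chains on bound substrates, by 0.35 (SE 0.11). ECPAS, an adaptor and scaffold, differed by 0.32 (SE 0.12), and each of these was without overlap between the pools. Of the 17 partners 6 were higher without overlap (35.3%) and 1, ZFAND2B, was lower (5.88%), against 5.48% and 21.6% of all genes. POMP, the maturation factor of the core, differed by 0.06 and the small lid subunit SEM1 by -0.09. The ubiquitin receptor ADRM1, which anchors UCHL5, differed by -0.17.

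Shuttle receptors and the VCP segregase, which bring ubiquitinated proteins to the proteasome, showed no common direction, with 6 of 15 above 0, a median of -0.05 and an unadjusted p under 0.05 for 2 higher genes and 1 lower gene, against 33.6% above 0, 4.33% higher and 10.5% lower of all genes. The shuttle UBQLN1 measured 9.12, 9.51 and 9.11 in the large pools and 8.57, 8.63 and 8.67 in the small pools (0.63, SE 0.14, limma adjusted p 0.323). Its paralogue UBQLN2 had the opposite order, at 7.16, 6.76 and 7.11 in the large pools and 7.76, 7.65 and 7.19 in the small pools (-0.52, SE 0.19, limma adjusted p 0.328). The VCP cofactors UBXN7 and UBXN4 differed by 0.83 (SE 0.33) and -0.23 (SE 0.14). Of the 3 ubiquitin and activating enzyme genes measured, UBA6 differed by 0.70 (SE 0.28), UBB by 0.04 (SE 0.10) and UBA1 by -0.16 (SE 0.22), with UBA6 alone under an unadjusted 0.05.

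**Figure D5:**
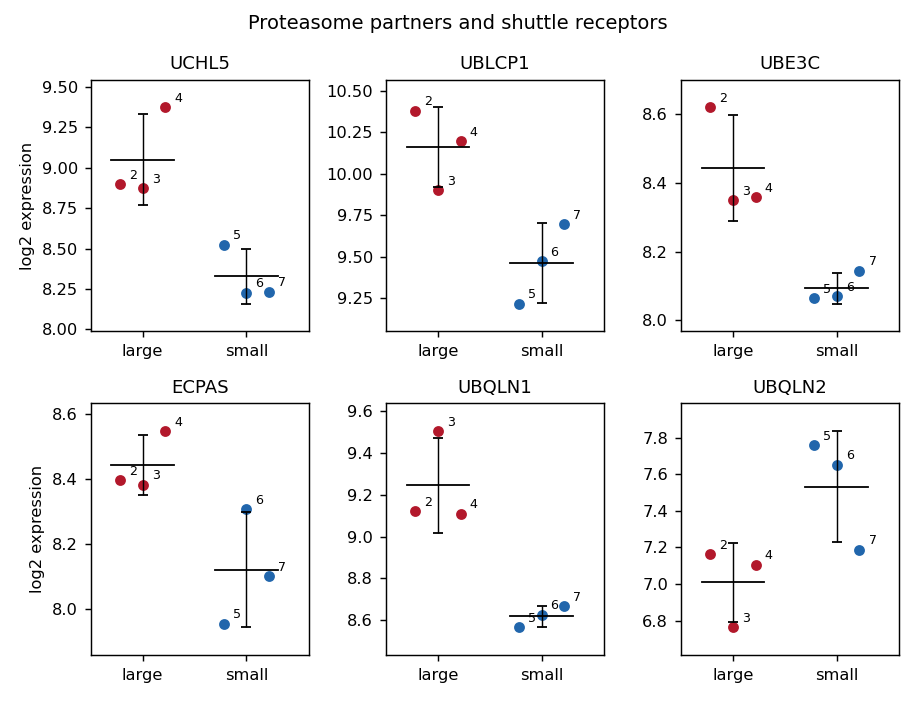
Log2 expression of 4 proteasome partners (UCHL5, UBLCP1, UBE3C, ECPAS) and of 2 shuttle receptors in each pool, large pools left and small pools right, labelled by replicate number, with the mean and SD (n = 3 pools). Each panel has its own axis that does not start at 0, and only UBQLN2 has its large pools below its small pools.

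A further 12 genes were those of transcription factors of proteasome genes and of their partners and regulators, KEAP1 among them. Of these 6 were above 0, with a median of -0.05. An unadjusted p under 0.05 was found for 1 higher gene (8.33%) and 1 lower gene (8.33%), against 4.33% and 10.5% of all genes. STAT3 measured 9.28, 9.55 and 9.57 in the large pools, against 7.49, 8.35 and 8.29 in the small pools (1.43, SE 0.25, limma adjusted p 0.323), a fold of 2.69 without overlap. FOXO4 differed by -0.24 (SE 0.09) and MAFG, a small Maf partner of NFE2L1 and NFE2L2, by -0.28 (SE 0.12), both also without overlap. In this list 1 gene was higher (8.33%) and 2 were lower (16.7%) without overlap, against 5.48% and 21.6% of all genes. NFE2L2, which drives the oxidative stress response, differed by 0.53 (SE 0.27) and NFE2L1 by -0.12 (SE 0.31), both with overlapping pools.

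Among 14 genes of interferon signalling and antigen presentation, which include the neighbours of the immunoproteasome in function, 6 were above 0 with a median of -0.06, with 0 higher and 1 lower (7.14%) at that limit, against 4.33% and 10.5% of all genes. The higher count was 2 after centring or quantile normalization. The lower one was TAPBP, which loads peptides on class I molecules, at -0.29 (SE 0.09, limma adjusted p 0.323). The guanylate-binding protein GBP2 differed by 0.84 (SE 0.35), but it was above 100 in 1 large pool and in 0 small pools, and the difference was 0.27 with the mean of its probe sets and 0.45 without large pool 3. The transporter subunit TAP2 differed by -0.31 (SE 0.14) and the interferon regulator IRF1 by 0.21 (SE 0.11).

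Some subunits of the COP9 signalosome and of the translation factor eIF3 share their fold with subunits of the proteasome lid, but not all do. Of the 21 genes measured from these complexes 14 were above 0, with a median of 0.17. An unadjusted p under 0.05 was found for 3 higher and 0 lower genes (14.3% and 0%), against 4.33% and 10.5% of all genes. With arrays centred on their median 8 were higher. The 4 with the smallest p were of eIF3: EIF3K differed by 0.93 (SE 0.19), EIF3D by 1.02 (SE 0.29), EIF3M by 0.54 (SE 0.17) and EIF3L by 0.75 (SE 0.31). Of 15 heat shock and proteotoxic stress genes 9 were above 0, with a median of 0.01 and an unadjusted p under 0.05 for 1 higher gene (6.67%) and 2 lower genes (13.3%), against 4.33% and 10.5% of all genes. The higher one was DDIT3, of the unfolded protein response, at 0.46 (SE 0.14), and the lower ones were the heat shock factor HSF1 at -0.32 (SE 0.09) and the small heat shock protein HSPB1 at -0.26 (SE 0.10), while HMOX1 differed by -0.37 (SE 0.16).

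Both interacting proteins had overlapping pools. PSMC3IP, which acts in meiotic recombination, measured 7.51, 7.01 and 7.13 in the large pools and 6.97, 8.22 and 7.19 in the small pools (-0.24, SE 0.35, limma adjusted p 0.708), high in small pool 6 alone. PSME3IP1, which binds PSME3, differed by 0.05 and did not share the split of PSME3 among the small pools, at 8.93, 8.98 and 9.12 there.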

How the data were processed

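Pools of 20 MUG-Chor1 cells, 3 large and 3 small, were grouped by the submitters' titles. The log2 values the authors deposited, with a column for each array, are RMA summaries (background correction, quantile normalization and median polish). Affymetrix Expression Console is named in the submitters' processing notes, and no source used here gives the chip definition file. Replicates were not pooled. Of 32321 probe sets 19158 had 1 gene symbol in the platform annotation, 1388 several and 11775 none; those with 1 symbol gave 18404 genes. All 47 members matched a RefSeq gene of GRCh38.p14.

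Large minus small was fitted on the deposited log2 values with limma 3.58.1 in R 4.3.3, without covariates or filter, and Benjamini-Hochberg adjustment over all genes. The study's methods filter on expression and variation without giving limits, and such filters were run as alternatives with a signal of 100 (6.64 on the log2 scale) in 25% of arrays and an interquartile range of 0.5; 44 of 47 members passed the first and 6 both. The fit was tested on simulated data. Members, related lists, ratios and motifs were chosen with earlier results of these data known, and lists were described by counts and medians only. Full statistics were given for the 8 members with the smallest p in each direction, the catalytic subunits and the leading gene of each other class, with the exceptions named in the text. The 4 genes with the smallest p of each related list were named, most of them by their difference and SE without the value in each pool. Alternatives were scaling, probe set choice, variance model, array weights and leaving out each pool. Precision is limited by the number of arrays.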

Additional observations from a re-analysis of the deposited data

How the results depend on the processing

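No member passed limma's threshold under any of the 15 alternatives, where the adjusted p of named members lay between 0.139 and 0.989. Of 751 log2 fold changes of the 53 named genes, 5 changed sign: PSMB6 was 0.0299 with arrays centred on their median and 0.0591 without small pool 5 (-0.154 to 0.0591 over the pools left out), UBB was -0.0231 without the trend with signal level and -0.0184 without small pool 5 (-0.0184 to 0.0854), and PSMC3IP was 0.137 without small pool 6 (-0.492 to 0.137). Counts moved with the scaling, the cause of which was not tested. With centring the median of all genes was -0.00, in place of -0.11 as deposited, which gave the members a median of 0.20, with 37 above 0, 9 higher at an unadjusted p under 0.05, and 11 higher and 0 lower without overlap. Under a further quantile normalization the members' median was 0.0289, 0.0857 above that of all genes, with 25 above 0 (53.2%, against 39.3% of all genes), 1 higher at an unadjusted p under 0.05, and 3 higher and 0 lower without overlap. With the trend with signal level removed, the members' median was 0.0512 above that of all genes, 32 were above 0 (68.1%, against 49.8% of all genes) and 0 were lower without overlap. The filter on low signal left 0 members lower without overlap, as did the restriction to genes above a signal of 100 in every pool, which was chosen after seeing the data. With the filter on signal and variation together, 6 members remained, 3 above 0, with 1 higher at an unadjusted p under 0.05, 0 higher and 0 lower without overlap and a median of 0.318, which was 0.00721 above that of all genes left. In that setting 2 of 2062 genes passed, neither of them a member. Leaving out 1 pool at a time gave 26 to 35 members above 0, against 32.8% to 36.3% of all genes. The members' median was 0.06 to 0.14, which was 0.18 to 0.25 above that of all genes. At an unadjusted p under 0.05, 1 to 6 were higher, against 3.72% to 4.69% of all genes. At that limit 0 to 2 were lower, against 5.55% to 8.64%. Without overlap 7 to 12 were higher and 1 to 4 lower, and 0 passed. Shares of all genes without overlap were not counted under any of the 15 alternatives. Of 206 counts of the related lists over the alternatives 53 moved by more than 1.5 times or changed to or from 0. No paired analysis was possible because the large pools are numbered 2 to 4 and the small pools 5 to 7, so that no number is shared. PSMA8, PSMB11 and PSMD5 lay below a signal of 100 in every pool, and 3 pools a group limit every comparison.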
